A study of Mus musculus with 2 samples.

Results

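The T and natural killer (NK) lymphocytes of the mouse heart formed a small group of 85 cells among 15964 kept cells, 44 of 7964 in the sham library and 41 of 8000 in the library from pressure-overloaded hearts. They were chosen by their own transcripts. A kept cell had at least 500 genes, at least 1000 UMIs (unique molecular identifiers, each standing for 1 captured transcript) and at most 15% mitochondrial UMIs, and a member had at least 1 UMI in at least 2 of the 8 marker genes Cd3d, Cd3e, Cd3g, Trac, Trbc2, Ncr1, Klrb1c and Nkg7. Cells with more than 2 UMIs over the complement genes C1qa, C1qb and C1qc, with any Cd79a UMI, or with 0.3% or more of their UMIs in Dcn, Col1a1, Col1a2 and Col3a1 were left out, because these genes mark macrophages, B cells and fibroblasts. All 8 marker genes, Trac and the CD3 genes included, were therefore used for the selection, and their levels in the members are a description.

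Male mice of the C57BL6/J wild type were the source of the hearts, taken at day 20 after transverse aortic constriction (TAC), a surgical narrowing that raises the pressure load on the left ventricle, or after a sham operation. How many hearts entered each suspension is not given in the sources used here, and each group was 1 library on 1 lane. The hearts were digested with collagenases and a protease, cardiomyocytes were removed by settling, red blood cells and debris were taken out, and viable cells were sorted by the absence of DAPI stain. A Chromium Next GEM 3′ kit made the droplet libraries. With 1 library per group no test across replicates can be made, so every interval below is a 95% interval for counting error only, "higher" and "lower" of a gene mean a difference of at least 2-fold in these libraries, and the group, the library and its lane cannot be told apart.

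T cells recognise peptides or other ligands through a clonally rearranged receptor that signals through the CD3 chains. The alpha and beta receptor chains (constant regions Trac, Trbc1 and Trbc2) define conventional CD4 and CD8 T cells, whereas the gamma and delta chains (Tcrg-C1, Trdc) define gamma delta T cells, some of which live in tissues and make interleukin 17. NK cells carry no rearranged receptor, sense their targets through activating and inhibitory receptors such as NKp46 (Ncr1) and the Klr family, and kill through perforin and granzymes. In the heart T cells are known as regulators of inflammation and fibrosis under pressure overload.

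Cells of the TAC library held more UMIs, and the reason was not tested. Kept cells had a median of 4895.5 UMIs (sham) and 11237 UMIs (TAC), and members a median of 3155 (lowest 1142, highest 12081) and 5005 (lowest 1190, highest 21993). The members together held 153784 UMIs (sham) and 238003 UMIs (TAC), so that 1 UMI was worth 6.50 and 4.20 CPM (counts scaled to a fixed sum of 1000000 UMIs). The libraries shared 15 barcodes, none of them a member in either library, and Scrublet marked 0 members as doublets.

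Under the rule the group was about equally frequent in both libraries. Members made up 0.552% of sham cells (95% interval 0.402% to 0.741%, exact Clopper-Pearson) and 0.512% of TAC cells (0.368% to 0.695%), a ratio of 0.928 (0.591 to 1.45). With no C1q or fibroblast UMI allowed, 20 sham and 2 TAC cells were left, at a ratio of 0.100. Among sham members 3 carried 2 of the 8 markers, 12 carried 3, 20 carried 4, 7 carried 5 and 2 carried 6. The TAC members carried 6 markers in 16 cells, 5 in 8, 4 in 11, 3 in 4 and 2 in 2 cells. Just outside the rule, 15 sham and 20 TAC cells met every other limit but carried only 1 marker.

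The limit on C1q transcripts left out most of the cells with lymphocyte markers. At least 2 markers were seen in 186 sham (2.34%) and 199 TAC cells (2.49%), and 139 and 153 of them carried more than 2 C1q UMIs. These cells were deep, with medians of 11716 and 21765 UMIs against 4711 and 10192 in all macrophage-like cells (at least 5 C1q UMIs and under 1% fibroblast gene UMIs, no members), a class that includes most of them. Scrublet marked 0 of the 139 and 2 of the 153. Few cells lay near the C1q limit, which fell in a gap of the distribution in the sham but not in the TAC library. Members carried 0, 1 and 2 C1q UMIs in 37, 7 and 0 sham cells and in 29, 10 and 2 TAC cells, 0 and 1 otherwise passing cells carried 3, another 3 and 2 carried 4 to 10, and 108 and 117 carried more than 10. For the fibroblast limit the highest member was at 0.0956% (sham) and 0.236% (TAC), and the 3 and 5 cells outside began at 1.96% and 1.5%. The Cd79a limit alone removed 0 cells. Whether the cells with C1q transcripts hold 1 or several cells was not tested. They are not members, and are used below only as a second set of cells from the same libraries.

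By the CD3 genes (Cd3d, Cd3e, Cd3g) and the NK receptor genes Ncr1 and Klrb1c, the members fell into a T part of 34 sham and 31 TAC cells and an NK part of 9 and 6 cells. The NK part was 20.5% of sham members (9.80% to 35.3%) and 14.6% of TAC members (5.57% to 29.2%). With a stricter cell filter (1000 genes, 2000 UMIs, 10% mitochondrial UMIs) the order was reversed, at 6.06% (2 of 33) and 12.5% (5 of 40). A further 1 sham and 2 TAC cells carried both kinds of genes. The 2 TAC cells with neither were held by 1 Trac UMI each beside Trbc2 or Nkg7, and carried pericyte transcripts. The same division in the cells with more than 2 C1q UMIs gave an NK part of 31 of 139 (22.3%, 15.7% to 30.1%) in the sham and 14 of 153 (9.15%, 5.09% to 14.9%) in the TAC library.

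**Figure D1:**
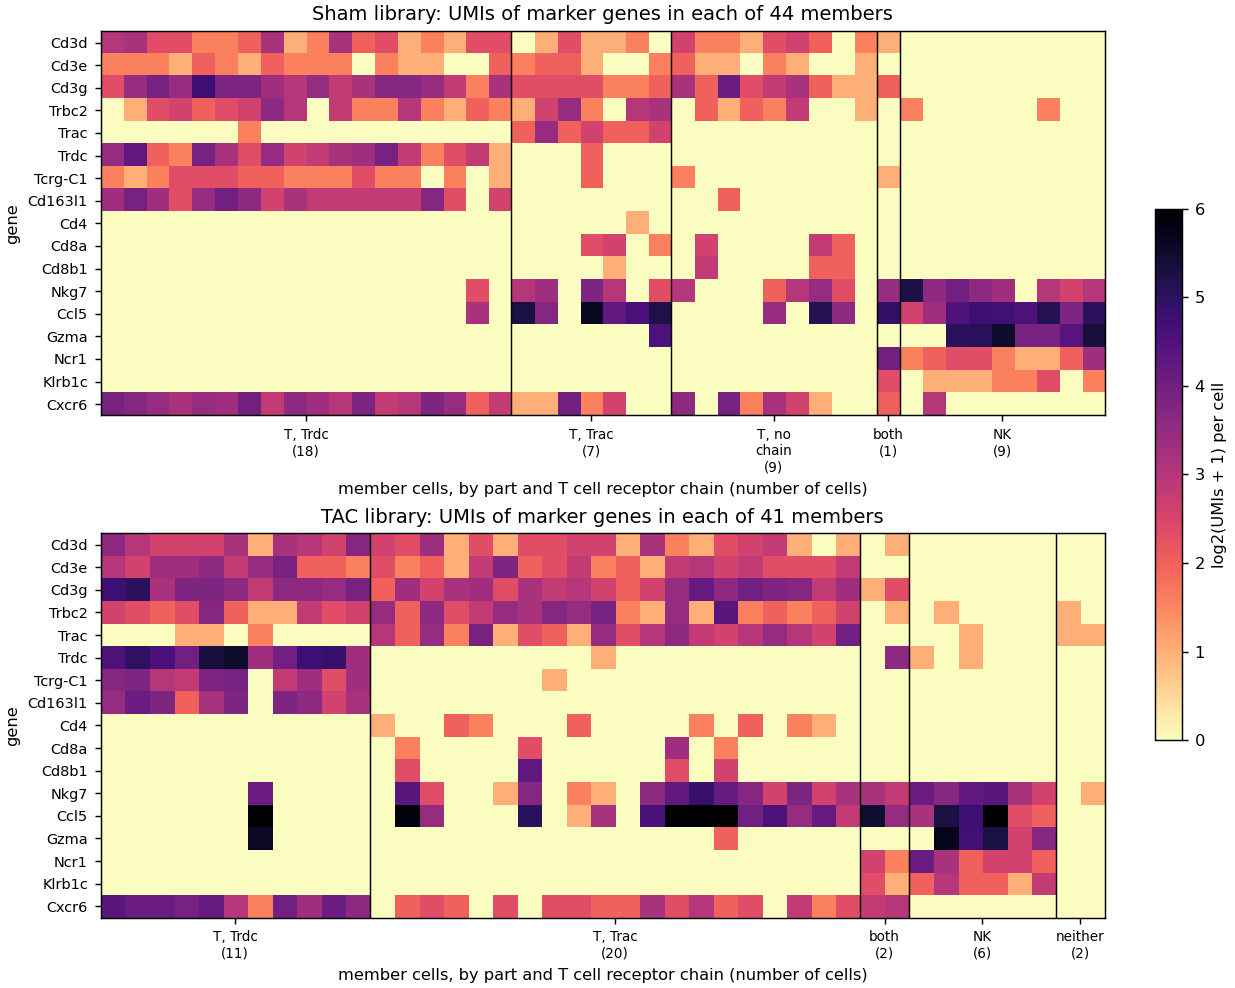
UMIs of 17 marker genes (rows) in each member cell (columns) as log2(UMIs + 1), for the 44 sham members above and the 41 TAC members below, with cells ordered by part and by T cell receptor chain. The block with more Trdc than Trac UMIs holds 18 sham and 11 TAC cells, most of them with Tcrg-C1 and Cd163l1, and the block with more Trac holds 7 and 20.

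The rule itself fixed the presence of its markers, which are given as a description. Cd3g, a signalling chain of the T cell receptor complex, was found in 35 of the 44 sham members and 33 of the 41 TAC members at 1665 and 1361 CPM. Ncr1, an activating receptor of NK cells, was seen in 10 and 8 members at 286 and 197 CPM, and Klrb1c, which encodes NK1.1, in 8 and 8 at 111 and 118 CPM. Nkg7, a granule protein of cytotoxic lymphocytes, was seen in 20 and 25 members at 1216 and 1109 CPM, in a larger share of NK than of T cells. Of 10 B cell markers 3 were seen in sham and 5 in TAC members, with 25 and 62 UMIs in sum (163 and 260.5 CPM). Cd79a was at 0 by the rule, Ms4a1 and Pax5 were at 0 in both libraries, and of the 3 genes measured 2 were higher in TAC. Cardiomyocyte and neutrophil genes stayed near 0, at 1 and 5 UMIs over 9 cardiomyocyte genes and at 0 and 13 UMIs over 9 neutrophil genes.

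The receptor chains of the T part differed between the 2 libraries. Sham T cells more often carried the delta chain, and TAC T cells the alpha chain. Trdc (chr14:54142851-54148868, plus strand), the constant region of the delta chain and no gene of the rule, lies in the same locus as Trac (chr14:54220521-54224206, plus strand), the constant region of the alpha chain. A T cell was counted as Trdc type when it had more Trdc than Trac UMIs and as Trac type in the reverse case, a division made after the values had been seen.

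Of 34 sham T cells 18 were of the Trdc type (52.9%, 35.1% to 70.2%), 7 of the Trac type (20.6%, 8.70% to 37.9%) and 9 had neither transcript. Of 31 TAC T cells 11 were of the Trdc type (35.5%, 19.2% to 54.6%), 20 of the Trac type (64.5%, 45.4% to 80.8%) and 0 had neither. The intervals of the Trac type did not overlap and those of the Trdc type did. Both transcripts were seen in 2 sham and 4 TAC T cells. Since the TAC cells were deeper, each member was also thinned at random to 1800 UMIs, which left out 9 shallower sham members and 1 shallower TAC member. Of 31 thinned T cells in each library, 15 sham and 10 TAC cells were then of the Trdc type, 6 and 17 of the Trac type, and 10 and 4 without either transcript. At this equal depth the intervals of the Trac share, 7.45% to 37.5% and 36% to 72.7%, overlapped. Trac counts toward membership and Trdc does not. With at least 2 CD3 genes required instead, 18 of 33 sham and 11 of 31 TAC cells were of the Trdc type, and 7 and 20 of the Trac type.

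The cells with C1q transcripts, none of them a member, showed the same order with larger numbers. Of 89 sham cells with CD3 and without NK genes, 42 were of the Trdc type (47.2%, 36.5% to 58.1%) and 28 of the Trac type (31.5%, 22% to 42.2%). Of 125 such TAC cells 19 were of the Trdc type (15.2%, 9.41% to 22.7%) and 92 of the Trac type (73.6%, 65.0% to 81.1%). There the intervals of both types were apart between the libraries before thinning. Thinned to 1800 UMIs, most of these cells lost both transcripts, and 23 and 11 of the sham cells and 15 and 22 of the TAC cells were of the Trdc and the Trac type. The intervals then overlapped for both types, at 17.1% to 36.2% and 6.87% to 19.0% for Trdc and at 6.33% to 21.0% and 11.4% to 25.4% for Trac. These cells come from the same 2 libraries, so they repeat the reading but not the experiment. They were also picked with the same 8 markers, Trac among them and Trdc not. In macrophage-like cells, a class that includes most of them, Trac was seen in 3.20% (sham) and 10.3% (TAC), and Trdc in 3.96% and 2.12%. After thinning these shares were 1.14% and 2.90% for Trac and 2.28% and 1.03% for Trdc.

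**Figure D2:**
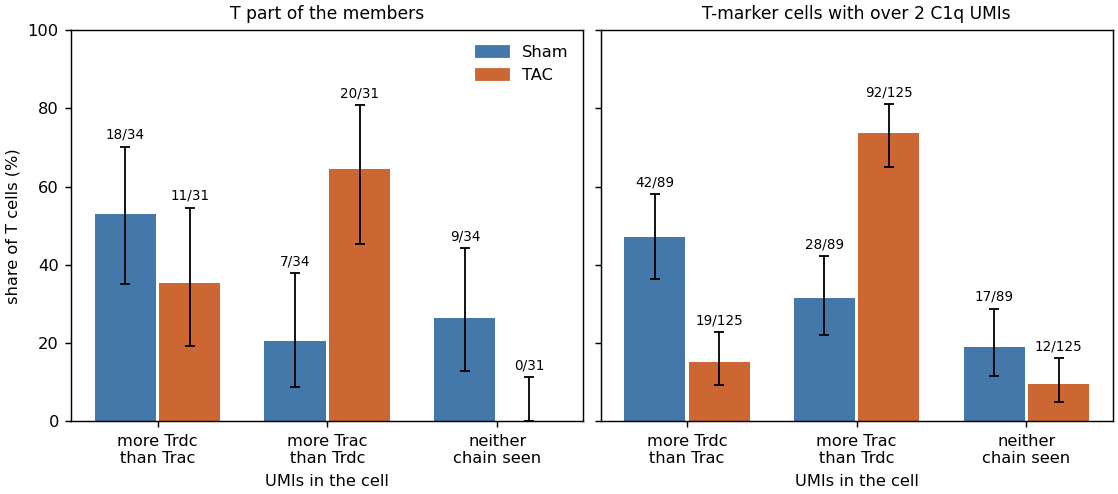
Share of T cells (%, y axis) with more Trdc than Trac UMIs, with more Trac than Trdc UMIs, or with neither, for the T part of the members (left) and for the cells with T markers and more than 2 C1q UMIs (right), in the sham (blue) and TAC (orange) library. Bars show the share, error bars the 95% Clopper-Pearson interval, and the fractions above them the cells counted. The Trac type holds 20 of 31 TAC against 7 of 34 sham members.

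At the level of summed transcripts Trac was at 221 CPM (153 to 309, 34 UMIs in 8 members) in the sham and 584 CPM (491 to 689.6, 139 UMIs in 26 members) in the TAC library, 2.64-fold higher (1.80 to 3.97). After thinning, 17.1% of sham and 47.5% of TAC members carried a Trac UMI (18.2% and 63.4% unthinned). In fibroblast-like cells (at least 1% of UMIs in the fibroblast genes and no Ptprc), which should lack the gene, the thinned share was 0.0166% and 0.112%, at unthinned median depths of 4996.5 and 12181 UMIs.

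Trdc was at 865 CPM (133 UMIs in 19 members) and 1151 CPM (274 UMIs in 15 members), a ratio of 1.33 (1.08 to 1.65). Fewer TAC members carried it, with more UMIs in each: within Trdc-type cells it was at 1684 CPM in the sham and 3341 CPM in the TAC library. Over all members 11 of the 12 T cell receptor and CD3 chain genes reached 50 CPM in at least 1 library, and of these 2 were higher and 0 lower in TAC. Among all 4031 genes at 50 CPM or more in the members 465 were higher in TAC (11.5%) and 369 lower (9.15%). Across kept cells that are no members, 3753 genes were compared, of which 150 were higher (4%) and 78 lower (2.08%). The larger shares among the members stand beside a much smaller sum of UMIs, and are the background against which each list below is read.

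The Trdc-type cells shared a set of genes that the rule did not use. Cd163l1 (chr7:140218267-140231145), a scavenger receptor of gamma delta T cells also known as Scart1, was found in 17 of 18 Trdc-type cells of the sham and 10 of 11 of the TAC library. It was seen in 0 of 7 and 0 of 20 cells of the Trac type, which allows shares of up to 41.0% and 16.8% (exact upper limits). The rule gene Trbc2, a beta chain constant region, was also seen in most Trdc-type cells, with up to 11 (sham) and 12 UMIs (TAC) in a cell. Over all T cells it was seen in 82.4% (sham) and 100% (TAC), so its transcript did not set the types apart. Tcrg-C1, a gamma chain constant region, was seen in 16 of 18 and 10 of 11 Trdc-type cells. Its copies in the gamma locus are close in sequence, so the split of reads among them is uncertain. Nkg7, which is a gene of the rule, showed the reverse, with 1 of 18 and 1 of 11 Trdc-type cells against 5 of 7 and 15 of 20 Trac-type cells.

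Genes of the interleukin 17 programme were found in the Trdc type of both libraries. Il23r, the receptor for interleukin 23, was at 104 and 116 CPM in Trdc-type cells (8 and 9 UMIs) and at 0 in Trac-type cells of both libraries. Blk, a Src-family kinase used by these cells, was at 324 and 359.8 CPM against 72.0 and 16.6. Maf, a transcription factor of the same programme, was at 194 and 359.8 CPM against 0 and 166. Il17a itself had 10 UMIs in 3 sham members, all of the Trdc type and 80% of them in 1 cell, and 0 UMIs in TAC members. With 3 counts taken in place of 0, that was 5.16-fold lower.

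Among the 10 genes of gamma delta and interleukin 17 cells 9 were measured, of which 1 was higher and 4 were lower over all members in TAC, with a median log2 ratio of -0.58 against -0.04 over all genes. Cd163l1 was at 904 CPM (139 UMIs, 18 cells) in the sham and 420.2 CPM (100.0 UMIs, 10 cells) in the TAC library, 2.15-fold lower (1.65 to 2.81). The interleukin 1 receptor gene Il1r1 was at 130.1 and 33.6 CPM, 3.87-fold lower (1.63 to 10.2). Within Trdc-type cells alone the list had 2 genes higher, 2 lower and a median of 0.15. In summed members, fewer cells of a type and less RNA of a gene per cell cannot be told apart, and here the number of Trdc-type cells itself differed.

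Coreceptors were sparse and kept to cells without the Trdc type. Cd4, the coreceptor of helper T cells, had 1 UMI in 1 sham member and 17 UMIs in 8 TAC members, a ratio of 11.0 (1.72 to 459). All 8 TAC cells were of the Trac type, 8 of 20. Cd8a or Cd8b1, the coreceptor chains of cytotoxic T cells, were seen in 6 sham and 4 TAC T cells, of which 3 and 4 were of the Trac type and the other 3 sham cells had neither receptor transcript. No T cell carried both coreceptors. After thinning Cd4 was found in 2.86% (sham) and 12.5% (TAC) of members, 2.27% and 19.5% unthinned, against 1.05% and 1.22% of macrophage-like cells.

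Of 21 T cell signalling and costimulation genes 20 were measured, 4 higher and 1 lower in TAC, with a median log2 ratio of 0.24, and of -0.01 within the Trdc type. Cd3e, a rule gene, was at 319 and 710.1 CPM, 2.23-fold higher (1.61 to 3.13), while Cd3d and Cd3g were at ratios of 0.925 (0.713 to 1.20) and 0.818 (0.692 to 0.967). Cd2, an adhesion receptor that strengthens T cell contacts, was at 97.5 and 261 CPM, 2.67-fold higher (1.5 to 5.06). Cd6, a regulator of the same contacts, was at 32.5 and 134 CPM, 4.14-fold higher (1.60 to 13.6). Cd2 and Cd6 had 0 UMIs in sham and 3 and 2 UMIs in TAC cells of the Trdc type, so nearly all their UMIs came from members of other types.

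Ptpn22, a phosphatase that dampens receptor signals, was at 169 and 353 CPM, 2.09-fold higher (1.33 to 3.38). Themis, a T lineage adaptor, had 1 and 17 UMIs in 1 and 14 cells. After thinning it was found in 2.86% (sham) and 5% (TAC) of members, and in another draw in 3.23% and 25.8% of the T part. Sla2, an adaptor that lowers receptor levels, was at 117 and 29.4 CPM, 3.98-fold lower (1.59 to 11.3). Hcst, which encodes the DAP10 adaptor of the receptor NKG2D, was at 202 and 567 CPM, 2.81-fold higher (1.89 to 4.30). It was found in 22 sham and 36 TAC members. The core kinases and scaffolds were near a ratio of 1, with Lat at 669.8 and 651 CPM and Zap70 at 156 and 168 CPM.

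Foxp3, the defining factor of regulatory T cells, was at 0 UMIs in both libraries, which allows up to 19.5 and 12.6 CPM over all members (3 counts of the sum). Ctla4, an inhibitory receptor, had 0 and 10 UMIs, with 70% of the latter in 1 cell. Tnfrsf4, the costimulatory receptor OX40, had 0 sham UMIs and 13 in 6 TAC members, 2.80-fold higher against 3 sham counts (exact lower limit 1.97). Of the 9 genes of the list 4 were measured, 1 higher and 0 lower. Pdcd1, the inhibitory receptor PD-1, was at 84.5 and 139 CPM, a ratio of 1.64 (0.841 to 3.40), and Havcr2 was at 0 in both libraries.

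Residency and recirculation genes were each found in a wide range of members. Cxcr6, a chemokine receptor of tissue-resident lymphocytes, was at 1587 CPM (1394 to 1799, 31 cells) in the sham and 929 CPM (810.2 to 1059, 29 cells) in the TAC library, a ratio of 0.585 (0.486 to 0.705). After thinning 80% of sham and 62.5% of TAC members carried it (70.5% and 70.7% unthinned), against 4.75% and 2.81% of macrophage-like and 0.0665% and 0% of fibroblast-like cells. It was at 2189 and 1825 CPM in Trdc-type and at 864 and 549 CPM in Trac-type cells. In the NK part 1 of 9 sham and 0 of 6 TAC cells carried it.

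Rgs1, a regulator that dampens chemokine receptor signals in resident cells, was at 2172 and 2252 CPM, a ratio of 1.04 (0.903 to 1.19). Ccr2, the receptor for monocyte chemoattractants, was at 969 and 769 CPM. Il7r, the receptor of a survival cytokine of T cells, was at 462 and 361 CPM and was nearly missing from the NK part, with 1 and 0 UMIs. The homing genes Ccr7 and S1pr1 had 0 and 6 UMIs in sham and 5 and 12 UMIs in TAC members, whereas Klf2, a factor of the recirculating state, was found in 43.2% and 43.9% and Il7r in 54.5% and 58.5% of members. The residency integrin genes Itga1 and Itgae were found in 15.9% and 6.82% of sham and in 19.5% and 7.32% of TAC members. Of the 7 residency genes measured 0 were higher and 1 was lower, namely Rgs2, a regulator of G protein signals, at 351 and 139 CPM. Of the 8 measured chemokine and egress receptor genes 1 was higher and 0 were lower.

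Chemokine genes divided into Ccl5 and the rest. Ccl5, made by memory T and NK cells, was at 2952 CPM (454 UMIs, 20 members) in the sham and 4420.1 CPM (1052 UMIs, 23 members) in the TAC library, a ratio of 1.5 (1.34 to 1.68). It was carried by the Trac type, at 6337 and 4824 CPM, and by the NK part, at 8776 and 7446 CPM. In the Trdc type it was at 104 CPM in the sham and 2968 CPM in the TAC library, where it was seen in 1 cell that also carried Gzma and Nkg7. The other 4 measured genes were lower in TAC: Ccl3, an inflammatory chemokine, at 390.2 and 122 CPM (3.20-fold, 2.02 to 5.17), Ccl4 at 579 and 239 CPM (2.42-fold, 1.71 to 3.43), Xcl1, which attracts cross-presenting dendritic cells, at 676 and 282 CPM (2.40-fold, 1.75 to 3.32), and Ccl1 with 8 and 1 UMIs. Each of these was held by few cells, between 6 and 9 per library for the first 3 genes. The median log2 ratio of the list was -1.27, and 0.58 after thinning, and the cause of that reversal was not tested.

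Cytokine genes were sparse. Ltb, a lymphotoxin chain that is expressed at rest, was at 605 and 618 CPM in 31 members of each library. Ifng, interferon gamma, had 33 UMIs in 10 sham and 30 UMIs in 11 TAC members, at 215 and 126 CPM. Tnf had 2 and 12 UMIs, and Cd40lg, the helper signal of CD4 T cells, 1 and 14 UMIs in 1 and 8 members. Il5, Il13 and Areg, products of type 2 lymphocytes, were at 0 in both libraries. Of 8 measured cytokine genes 2 were higher and 1 was lower. Among cytokine receptors, Ifngr1 was at 754 and 1294 CPM (1.72, 1.38 to 2.14), Ifnar2, a chain of the type I interferon receptor, had 2 and 22 UMIs (7.11, 1.75 to 62.4), and Il18r1 was at 182 and 63.0 CPM, 2.89-fold lower (1.49 to 5.82).

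The NK part differed from the T part in genes beyond the 2 that defined it. Over 5004 genes compared, 343 were at least 2-fold higher in the NK part in both libraries (6.85%) and 582 in the T part (11.6%). Since the parts were cut from the same cells by correlated genes, this is a description. Of 20 measured NK receptor genes 17 were higher in the NK part in both libraries and 1 in the T part, and of 13 cytotoxic granule genes 8 and 1.

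Gzma, a granule protease, was at 9154 and 5189 CPM in the NK part of the sham and TAC library and at 171 and 252 CPM in the T part, and was seen in 7 of 9 and 5 of 6 NK cells. Prf1, the pore-forming perforin, was at 944 and 555 CPM against 31.1 and 30.3. The lectin-like receptor genes Klre1 and Klrd1 were at 1935 and 1651 CPM in sham and at 1149 and 1188 CPM in TAC NK cells, and at most 93.4 CPM in T cells. Klrk1, which encodes NKG2D, was at 1509.9 and 2020.0 CPM against 241 and 126.

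The largest NK to T ratios among genes outside the rule belonged to the receptor genes Klra8, Klra4, Klri2, Klrb1a and Klra3 and to Eomes, the factor of mature NK cells. Klra8, the Ly49H receptor, had 11 UMIs in 3 sham and 20 UMIs in 4 TAC NK cells and 0 in T cells. Against 3 counts in T cells these were 22.2-fold and 52.3-fold higher. Klra4 had 10 UMIs in 1 sham and 30 UMIs in 5 TAC NK cells and 0 in T cells, 20.2-fold and 78.4-fold higher against 3 counts. The Klra genes are near-identical in sequence, and the split of reads among them is uncertain. Eomes had 3 and 10 UMIs in 3 and 3 NK cells and 0 in T cells. The others named by the same rule were Styk1, Car2, Adamts14, Phactr3, Cma1 and Hhex, each with at most 8 UMIs in an NK part and 0 UMIs in the T parts.

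In the T part the largest ratios belonged to H2-Eb1 and H2-Ab1, class II molecules of antigen-presenting cells, whose UMIs came from 5 T cells in each library. Ly6a (Sca-1), Cd163l1, Tcrg-C1, Serpinb1a and Bcl11b followed, also with 0 UMIs in the NK part. Bcl11b, the factor that fixes T lineage identity, was at 311 and 333 CPM, 2.20-fold and 2.80-fold higher against 3 counts in the NK part. Ly6a was at 701 and 752 CPM, 4.95-fold and 6.33-fold higher against 3 counts in the NK part. Gpr183, an oxysterol receptor that guides lymphocytes, was at 366 and 247 CPM, and the thrombin receptor gene F2r at 483 and 283 CPM. Ltb4r1, the leukotriene B4 receptor, was at 241 and 202 CPM, while Tmem64 and Actn2 were at 226 and 212 and at 179 and 252 CPM.

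**Figure D3:**
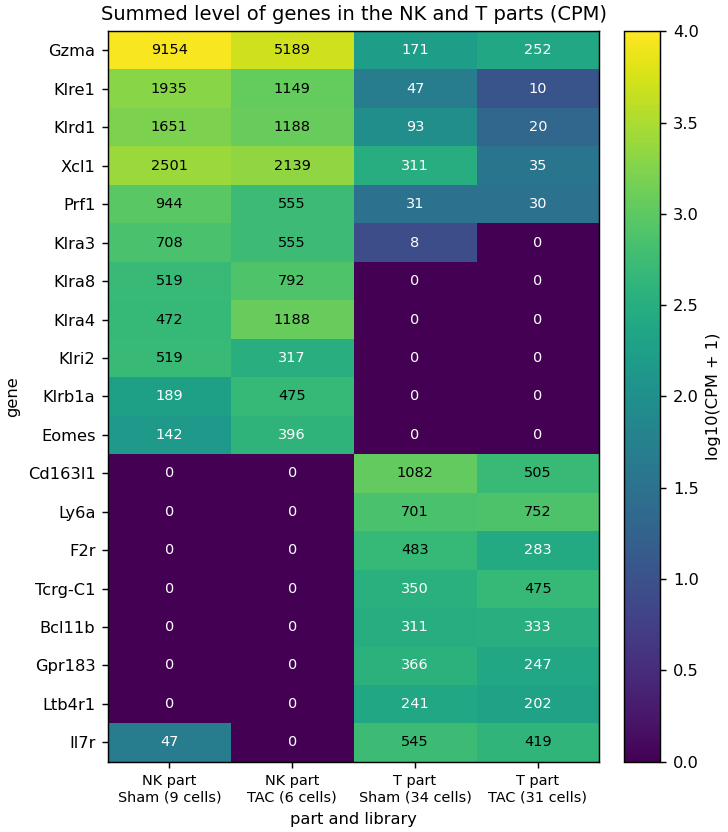
Summed level (CPM, printed in each field, colour as log10(CPM + 1)) of 19 genes in the NK part (9 sham and 6 TAC cells) and the T part (34 and 31 cells). Receptor and granule genes fill the NK columns, with Gzma at 9154 and 5189 CPM, and Cd163l1, Ly6a and Bcl11b are at 0 there.

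Other cytotoxic genes of the members were near a ratio of 1 or rested on few cells. Gzmb, a granule protease, was at 254 and 277 CPM. Gzma over all members was at 1405 and 760.5 CPM, a ratio of 0.541 (0.442 to 0.663). Gzmk, a granzyme of memory CD8 T cells, had 0 UMIs in the sham and 15 UMIs in 6 TAC members. That was 3.23-fold higher against 3 sham counts (exact lower limit 2.32). Gzmc had 364 UMIs in 1 sham member and 1 UMI in 1 TAC member. Of 13 measured granule genes 1 was higher and 1 lower in TAC, and of 20 measured NK receptor genes 0 and 3.

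Heat shock genes were lower as a group in TAC members. Heat shock proteins are chaperones that hold and refold other proteins, and their genes are switched on together by heat shock factor when proteins unfold. Of 11 genes 10 were measured, 0 were higher and 9 were lower by at least 2-fold, with a median log2 ratio of -1.74 against -0.04 over all genes. Per cell, the 11 genes took a median of 1.21% of UMIs in sham members (lowest 0.200%, highest 3.50%) and 0.468% in TAC members (lowest 0.0840%, highest 0.998%). The highest TAC member was thus below the sham median.

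**Figure D4:**
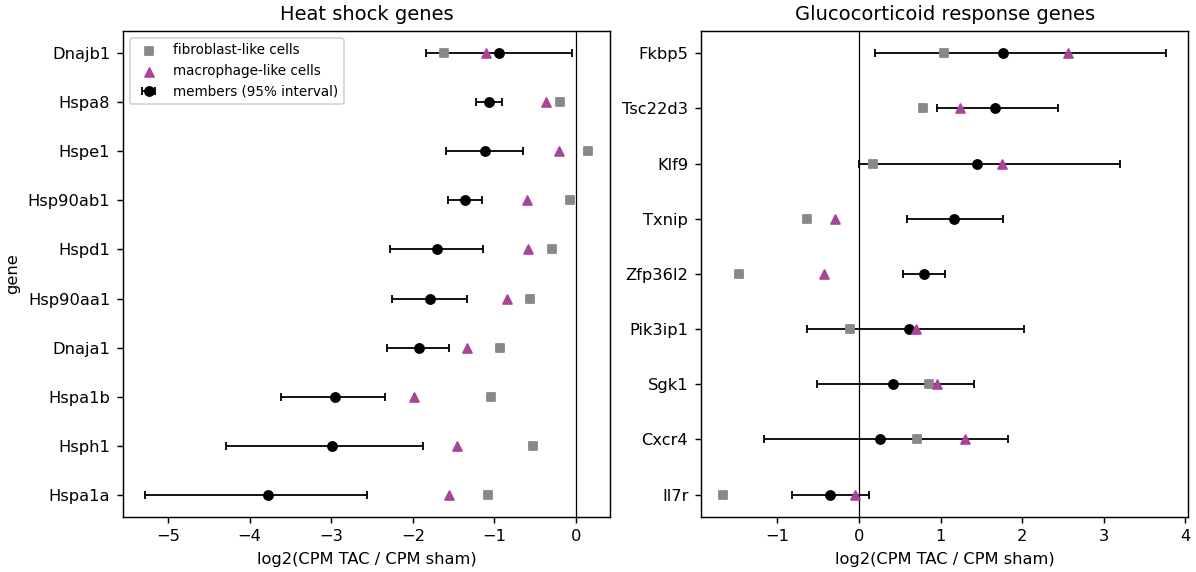
Log2 ratio of TAC to sham CPM (x axis) of heat shock genes (left) and glucocorticoid response genes (right) in the members (black points, bars the exact 95% interval for counting error), in fibroblast-like cells (grey squares) and in macrophage-like cells (purple triangles). All 10 measured heat shock genes lie below 0 in the members, and Txnip and Zfp36l2 lie above 0 in the members and below 0 in the other cells. Ddit4, with 0 sham UMIs in the members, is not drawn.

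Hspa8, the constitutive chaperone, was at 5059 CPM (4709.8 to 5427) in the sham and 2416 CPM (2222 to 2622) in the TAC library, 2.09-fold lower (1.88 to 2.34). Hsp90ab1, a constitutive Hsp90, was at 3439.9 and 1340.3 CPM, 2.57-fold lower (2.23 to 2.96). Dnaja1, a cochaperone of Hspa8, was at 1327 and 349 CPM, 3.8-fold lower (2.93 to 4.97). Hspa8 was seen in 44 of 44 and 40 of 41 members, and Dnaja1 in 38 and 34.

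The largest ratios were those of the inducible Hsp70 genes and Hsph1, each seen in fewer cells. Hspa1b (chr17:34956436-34959238, minus strand), the inducible Hsp70, was at 845 CPM (130.0 UMIs in 18 members) in the sham and 109 CPM (26 UMIs in 3 members, 84.6% of them in 1 cell) in the TAC library, 7.74-fold lower (5.05 to 12.3). Its near-identical copy Hspa1a had 53 UMIs in 7 and 6 UMIs in 1 member, and the split between the copies is uncertain. Hsph1, which recharges Hsp70 with nucleotide, was at 267 CPM in 23 and 33.6 CPM in 8 members, 7.93-fold lower (3.67 to 19.6). After thinning Hspa1b was found in 37.1% (sham) and 5% (TAC) of members (40.9% and 7.32% unthinned), Hsph1 in 40% and 2.5% (52.3% and 19.5%), and Dnaja1 in 85.7% and 47.5% (86.4% and 82.9%). In thinned macrophage-like cells Hspa1b was found in 49.6% and 22.1%.

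Hsp90aa1, the inducible Hsp90, was at 858 and 248 CPM, 3.46-fold lower (2.53 to 4.79). Hspd1 and Hspe1, the mitochondrial chaperonin and its lid, were at 546 and 168 CPM (3.25-fold lower, 2.21 to 4.86) and at 611 and 282 CPM (2.17-fold lower, 1.57 to 3.02). Dnajb1, a cochaperone of the inducible Hsp70, was at 169 and 88.2 CPM, 1.92-fold lower (1.04 to 3.58). Hspb1, a small heat shock protein, was below 50 CPM in both libraries, with 0 and 10 UMIs.

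Lower heat shock levels in TAC were found in both parts and also in the other cells. The median log2 ratio of the list was -1.92 in the T part, -1.01 in the NK part, -2.23 in the Trdc type, where 10 of 10 genes were lower, and -1.16 in the Trac type. In the NK part 5 of the 10 were lower, Hspd1 and Hspe1 were at log2 ratios of 0.48 and 0.42, and Hspa1a was at 0 CPM in both libraries. Over kept cells that are no members the same genes had a median of -0.65, with -0.54 in fibroblast-like, -0.97 in macrophage-like and -1.14 in B-like cells. By cell, the sham median was 1.21% in members, 0.692% in macrophage-like and 0.473% in fibroblast-like cells, whereas in TAC it was 0.468%, 0.432% and 0.377%. With 1 suspension per group, the operation and the preparation of the cells cannot be told apart.

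Of the 11 genes the 10 measured had log2 ratios below 0, 9 of them by at least 2-fold. The other gene, Hspb1, was below 50 CPM in both libraries and was seen in TAC members only. Their promoters were read in RefSeq sequence (GRCm38.p6) for the target of heat shock factor, inverted repeats of the unit GAA. Of the 11 genes 8 were in the table, and Hspa8, Hsp90aa1 and Hsp90ab1 were not. Shown are the 150 bases before the start site, 5′ to 3′ on the gene's strand, of the genes with the largest ratios (Hspa1b, which also stands for its copy Hspa1a, Hsph1 and Dnaja1) and of Hspe1 for its run of pairs, with capitals at GAANNTTC or TTCNNGAA, which read the same on both strands.
Hspa1b: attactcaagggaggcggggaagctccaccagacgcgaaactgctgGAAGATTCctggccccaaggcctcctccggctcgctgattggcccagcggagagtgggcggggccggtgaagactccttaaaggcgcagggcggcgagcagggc
Hsph1: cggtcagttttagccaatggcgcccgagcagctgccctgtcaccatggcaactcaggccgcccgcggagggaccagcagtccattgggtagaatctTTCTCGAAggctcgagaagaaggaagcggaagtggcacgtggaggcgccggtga
Dnaja1: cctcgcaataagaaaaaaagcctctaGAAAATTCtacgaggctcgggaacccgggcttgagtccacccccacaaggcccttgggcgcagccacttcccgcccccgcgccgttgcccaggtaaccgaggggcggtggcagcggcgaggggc
Hspe1: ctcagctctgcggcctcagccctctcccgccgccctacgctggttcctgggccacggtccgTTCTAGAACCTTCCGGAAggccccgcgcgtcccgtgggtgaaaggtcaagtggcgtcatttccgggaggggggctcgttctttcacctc
The windows are chr17:34959239-34959388 (minus strand) for Hspa1b, chr5:149636316-149636465 (minus strand) for Hsph1, chr4:40722318-40722467 (plus strand) for Dnaja1 and chr1:55087998-55088147 (plus strand) for Hspe1. The capitals begin 104, 54, 124 and 89 bases before the start site. In Hspe1 they form a run of 3 overlapping pairs, and the head-to-head neighbour Hspd1 shares this stretch on the other strand. The Hspa1a window equals that of Hspa1b in 149 of 150 bases. A pair was found in 7 of the 8 genes and in 8 of their 13 windows (61.5%). Of all 32851 windows of the same length in the table, a pair was in 7.73%, GAANNTTC in 3.95% and TTCNNGAA in 4.21%. The 8 windows are not independent. Hspa1a and Hspa1b are near-identical copies, Hspd1 and Hspe1 share a stretch, and Hsph1 counts through overlapping windows with the same TTCTCGAA. The list was made of genes switched on by heat shock factor. The share of windows with a pair therefore describes the list and cannot bear on the difference between the libraries. The matches are letters in a window and were not tested as binding sites.

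Genes induced by glucocorticoids differed in the opposite direction. Of 11 genes 10 were measured, 5 were higher and 0 lower in TAC, with a median log2 ratio of 0.97. Tsc22d3, which encodes the glucocorticoid-induced leucine zipper, was at 130.1 CPM (20 UMIs, 11 members) and 412 CPM (98 UMIs, 28 members), 3.17-fold higher (1.94 to 5.41), and after thinning in 11.4% and 50% of members (25.0% and 68.3% unthinned), against 48.9% and 77.2% of macrophage-like cells. Fkbp5, a cochaperone of the glucocorticoid receptor, was at 26.0 and 88.2 CPM, 3.39-fold higher (1.14 to 13.6). Ddit4, an inhibitor of mTOR signalling, had 0 UMIs in the sham and 15 UMIs in 11 TAC members. That was 3.23-fold higher against 3 sham counts (exact lower limit 2.32). Klf9, a transcription factor of the same response, had 5 and 21 UMIs, a ratio of 2.71 (0.996 to 9.21).

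The list was above 0 in most of the other cells as well. Its median log2 ratio was 0.53 over kept cells that are no members, with 0.24 in fibroblast-like, 1.09 in macrophage-like and -0.09 in B-like cells. Some of its genes differed in the opposite direction from the other cells of the same libraries. Txnip, a thioredoxin inhibitor, was at 215 and 479 CPM, 2.23-fold higher (1.5 to 3.40), while its log2 ratio over kept cells that are no members was -0.50. Zfp36l2, an RNA-binding protein that keeps lymphocytes quiescent, was at 1118 and 1937 CPM, a ratio of 1.73 (1.45 to 2.08), against a log2 ratio of -0.94 in the others. Tsc22d3, Fkbp5 and Klf9 were above 0 in fibroblast-like and macrophage-like cells as well. The list had a median of 1.42 in the T part, 2.49 in the Trac type and 1.21 in the Trdc type, and -0.92 in the NK part, whose 9 and 6 cells had 1 gene higher and 5 lower. Tsc22d3 was at 77.7 and 193 CPM in Trdc-type and at 72.0 and 566 CPM in Trac-type cells.

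Cell cycle genes were lower in TAC members, and 3 sham cells carried most of their transcripts. Of 17 genes 10 were measured, 0 were higher and 9 lower, with a median log2 ratio of -2.93 and a summed level of 2126 and 584 CPM. The 3 sham T cells with at least 4 of the 17 genes held 255 of 327 UMIs, and 1 of them had 15 of the genes. In the TAC library 2 cells had at least 4 genes, with 19 of 139 UMIs. Without those cells the sums were 547 and 556 CPM. Stmn1, a tubulin regulator, had 55 and 4 UMIs and Top2a, the replication topoisomerase, 34 and 9 UMIs, with 61.8% and 55.9% of the sham UMIs in 1 cell each.

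Genes of apoptosis and survival, a list of both death and survival factors, were higher in part. Of 9 measured genes of apoptosis and survival 4 were higher and 0 lower, with a median log2 ratio of 0.93. Casp8, the initiator caspase of death receptors, was at 26.0 and 118 CPM in 4 and 21 members, 4.52-fold higher (1.58 to 17.7). Bcl2a1b, a survival factor with near-identical copies, was at 91.0 and 189 CPM, 2.08-fold higher (1.12 to 4.10). Bcl2, the main survival factor of resting T cells, was at 390.2 and 744 CPM, a ratio of 1.91 (1.41 to 2.6), and after thinning in 51.4% and 72.5% of members (59.1% and 95.1% unthinned), against 8.52% and 11.2% of macrophage-like cells. It was at 363 and 745 CPM in Trdc-type and at 252 and 765 CPM in Trac-type cells. Without the 3 sham and 7 TAC members that carry genes of other cell types the median of the list was -0.0076 on the log2 scale.

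Of 8 measured interferon response genes 1 was higher and 1 lower, with a median log2 ratio of 0.09. Ifi27l2a, an interferon-induced membrane protein, was at 45.5 CPM (7 UMIs, 5 members) and 492 CPM (117 UMIs, 18 members), 10.8-fold higher (5.08 to 27.5), against a log2 ratio of 0.64 in kept cells that are no members. Isg15, an interferon-induced ubiquitin-like protein, had 0 and 2 UMIs. Among 13 measured class I presentation genes 2 were higher, Psmb9, an immunoproteasome subunit, at 111 and 252 CPM and H2-T22, a non-classical class I gene with close copies, at 130.1 and 294 CPM. H2-K1 was at 3544 and 4126 CPM.

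Of 12 measured glycolytic genes 3 were higher and 0 lower, with a median of 0.35 against 0.40 for the same genes in the other kept cells. Gapdh was at 234 and 639 CPM, 2.73-fold higher (1.89 to 4.04), Tpi1 at 78.0 and 235 CPM, and Eno1 at 202 and 420.2 CPM, while Ldha was at 995 and 857 CPM. Of 16 measured immediate early genes 1 was higher and 3 were lower, with a median of -0.37. Jun was at 761 and 319 CPM, 2.38-fold lower (1.77 to 3.22). Junb was at 3037 and 2899 CPM. Among 13 measured effector transcription factors 2 were higher and 1 lower, with a median of -0.01. Tbx21, the type 1 factor, had 3 and 13 UMIs, and Id2, common to innate-like lymphocytes, was at 1021 and 992 CPM.

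The remaining lists are short, and are given beside the 11.5% of genes higher and 9.15% lower over all 4031 genes. Of the genes of naive and recirculating T cells 8 were measured, 2 higher and 1 lower, and of the adhesion and homing genes 9 were measured, 1 higher and 0 lower. Of 7 measured signalling adaptors of NK receptors 2 were higher and 0 lower, and of 13 measured cytokine receptor genes 2 and 1. Of the 3 coreceptor genes 1 was higher and 1 lower, of 3 measured inhibitory receptor genes 0 were, and of 2 measured genes of type 2 innate lymphocytes 1 was higher.

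**Figure D5:**
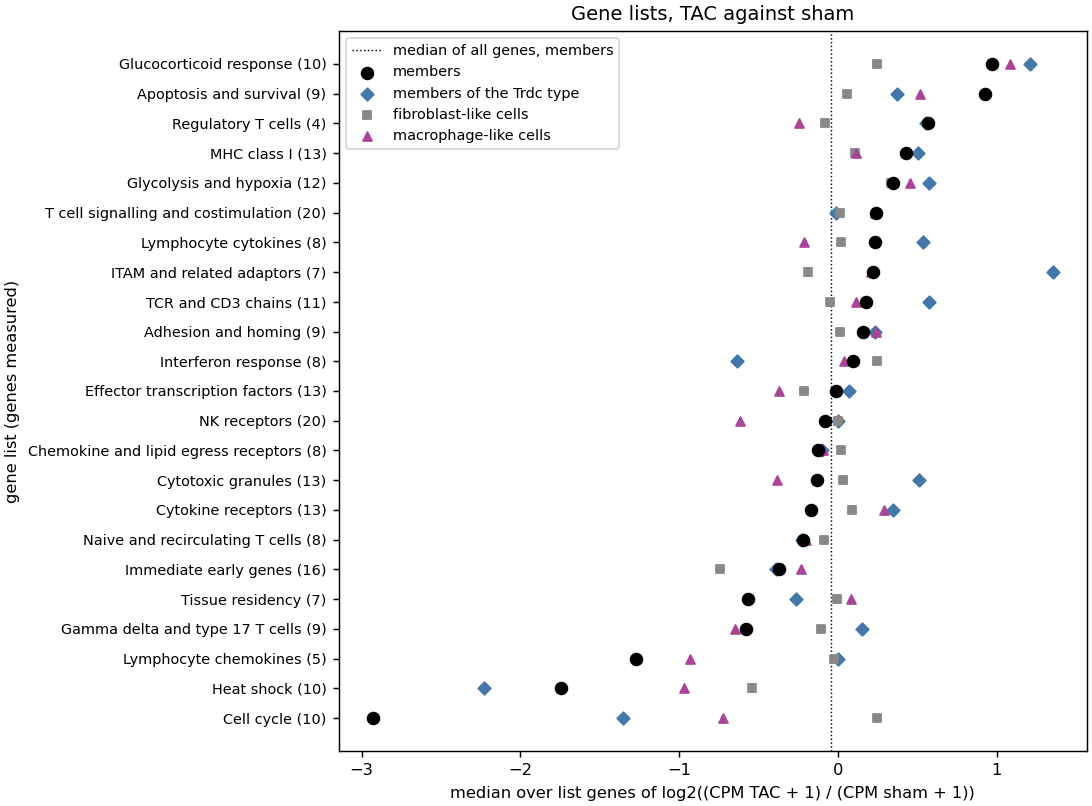
Median log2 ratio of TAC to sham (x axis, log2 of CPM + 1) over the measured genes of each list with at least 4 of them (number in brackets), in all members (black), members of the Trdc type (blue), fibroblast-like cells (grey) and macrophage-like cells (purple), with the median of all genes in the members as a dotted line at -0.04. Heat shock at -1.74 and cell cycle at -2.93 lie lowest in the members, and glucocorticoid response at 0.97 highest of the lists plotted.

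The 12 genes with the largest ratios in each direction were named by size among genes at 50 CPM or more and seen in at least 10% of members of the higher library, which leaves out Il17a and Gzmc. Toward TAC they were Fabp4, Rgs5, Pdgfrb, Fn1, Ifi27l2a, Cav2, Ddit4, Gzmk, Tnfrsf4, Nudt16, Prrt1 and Ahcyl1. Fabp4, a fatty acid carrier of capillary endothelium, had 0 and 186 UMIs, of which 81.7% lay in 1 TAC member. Rgs5 and Pdgfrb, genes of pericytes, had 0 sham UMIs and 129 and 23 TAC UMIs, with 66.7% and 60.9% in 1 cell. Nudt16, Prrt1 and Ahcyl1 had 0 UMIs in the sham and 13, 13 and 12 UMIs spread over 9, 10 and 12 TAC members. Against 3 sham counts these were 2.80-fold, 2.80-fold and 2.58-fold higher, and the exact lower limits were 1.97, 1.97 and 1.80. Fn1, the matrix protein fibronectin, had 3 and 54 UMIs, with 55.6% of the latter in 1 cell, a ratio of 11.6 (3.77 to 58.2). Its log2 ratio was 3.47, and 0.57 without the members that carry genes of other cell types. Cav2, a caveola protein, had 1 UMI in the sham and 18 UMIs in 7 TAC members, a ratio of 11.6 (1.84 to 485), and a log2 ratio of -0.18 after thinning.

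Toward sham they were Stmn1, Top2a, Asf1b, Hspa1a, Hspa1b, Hsph1, Nrgn, Cables2, Tma16, Nup88, Lman2l and Map3k8. Asf1b, a histone chaperone of replication, had 11 and 1 UMIs, a ratio of 17 (2.47 to 733). Nrgn had 27 and 5 UMIs with 77.8% of the sham UMIs in 1 cell. Cables2, Tma16, Nup88 and Lman2l had between 9 and 12 sham UMIs over 7 to 10 members and 1 to 3 TAC UMIs.

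Transcripts of other cell types were more frequent in the TAC members. The 10 macrophage markers summed to 358 CPM in the sham and 2735 CPM in the TAC library, with Csf1r, Adgre1 and Fcgr1 at 0 in the sham and none at 0 in TAC, and 453 of the 651 TAC UMIs lay in 1 cell. The 10 endothelial markers summed to 26.0 and 992 CPM, with 8 and 2 of them at 0 and 193 of 236 TAC UMIs in 1 cell. The 9 pericyte and smooth muscle markers summed to 39.0 and 823.5 CPM, with 8 and 1 at 0 and 127 of 196 TAC UMIs in 1 cell. The 10 fibroblast markers were at 520.2 and 933 CPM, with 5 and 1 at 0, and the 11 monocyte and dendritic cell markers at 5995 and 7084 CPM, with 5 and 4 at 0. At least 4 genes of another class were carried by 3 sham and 7 TAC members, counted without the fibroblast genes. At least 4 of the 10 fibroblast genes were carried by 0 sham and 10 TAC members.

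Without the 3 and 7 members the comparison had 411 genes higher and 464 lower, so that genes lower in TAC were then the larger number. The T part then held 17 of 31 sham (54.8%) and 10 of 26 TAC cells (38.5%) of the Trdc type, and 5 (16.1%) and 16 (61.5%) of the Trac type. The log2 ratios of Fabp4, Rgs5 and Fn1 were then 5.59, 4.23 and 0.57, against 9.61, 9.08 and 3.47 with all members. The list medians were then -1.56 for heat shock and 0.83 for glucocorticoid response, against -1.74 and 0.97. Beyond such recomputed values, the part of these transcripts in the differences was not tested.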

How the data were processed

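Single-cell RNA libraries of cardiac non-cardiomyocytes, 1 from sham-operated and 1 from TAC mice (day 20), were analysed. The deposited values are raw UMI counts, written by Cell Ranger 3.1.0 per the file headers. The submitters' processing notes name mm10 and Seurat, and their cell names were not used here. Coordinates come from GENCODE vM21, in which 30934 of 31053 gene IDs were found.

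Counts of the 85 members were summed per library and given as CPM of the members' UMIs, with exact Poisson, conditional ratio and Clopper-Pearson intervals (95%). They cover counting error only. Log2 ratios carry a pseudocount of 1 CPM. Genes at 50 CPM or more in at least 1 library were compared, and a difference of at least 2-fold was counted. Against a sum of 0 UMIs, 3 counts were taken for the whole group, and the counting error of the other sum was left out of that ratio. Depth was 42490230 UMIs over 8426 barcodes in the sham and 96003109 over 8901 in the TAC library, of which 462 and 901 barcodes were left out.

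For shares, cells were thinned to 1800 UMIs (35 sham and 40 TAC members). Scrublet (expected rate 0.07) marked 70 sham and 146 TAC cells, and no cell was removed for it. Named genes were the 12 with the largest ratio in each direction among genes at 50 CPM or more, seen in at least 10% of members of the higher library and at 0.5 times the CPM of other kept cells or more (mitochondrial, ribosomal, haemoglobin, Y-linked, unnamed and rule genes left out), for TAC against sham and for the NK against the T part in both libraries, plus members of 26 gene lists. Members and lists were chosen with earlier results of these data known. Chain types, and the alternatives without members carrying other cells' genes, with all marker-bearing cells and within the Trdc type, were chosen after the values had been seen. The other alternatives covered scaling, pseudocount, filters, thinning and the membership rule. Scripts were tested on simulated data. Python 3.11.15, numpy 2.4.6, scipy 1.17.1, pandas 2.3.3, scanpy 1.11.5 and matplotlib 3.10.9 were used. Some genes of the lists are not reported here.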

Additional observations from a re-analysis of the deposited data

Results flagged for a closer look

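Of the list genes with at least 10 UMIs over both libraries in each part, 5 differed at least 2-fold between sham and TAC in opposite directions in the T and the NK part of the members. Each part is a single pool of cells per library, so the difference was not tested. Values are the log2 ratio in the NK part minus that in the T part. Ccl4, a chemokine, had a difference of 3.54: it was at 592 and 136 CPM in sham and TAC T cells and at 425 and 1149 CPM in NK cells. Those NK values rest on 9 UMIs in 3 and 29 UMIs in 3 cells. Ifng, interferon gamma, had a difference of -4.14, with 54.5 and 126 CPM in T cells and 1227 and 158 CPM in NK cells, the latter from 26 UMIs in 6 and 4 UMIs in 2 cells. Fasl, a death ligand of cytotoxic cells, had a difference of -2.46, with 23.4 and 55.5 CPM in T and 377 and 158 CPM in NK cells. It had 3 and 11 UMIs in T cells, and 8 UMIs in 5 and 4 UMIs in 3 NK cells. Zeb2, a factor of mature NK cells, had a difference of -3.84, with 46.7 and 95.9 CPM in T and 566 and 79.2 CPM in NK cells. It had 6 and 19 UMIs in T cells, and 12 UMIs in 5 and 2 UMIs in 2 NK cells. Sgk1, a kinase gene induced by glucocorticoids, had a difference of -10.82, with 38.9 and 151 CPM in T cells and 10 and 0 UMIs in NK cells, so that this value depends on the pseudocount.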

How the results depend on the processing

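No paired analysis was possible because each group is 1 library, and the number 1 that each carries only names it. For the same reason no library could be left out. Of 277 alternatives for 24 named genes 247 stayed within the counting interval, 27 moved and 3 reversed, and of 129 for 26 list medians 122 stayed, 5 moved and 2 reversed; the cause of the moves was not tested. Reversed on the log2 scale were Cav2 (-0.18) and the median of the chemokine list (0.58) after thinning, the apoptosis list (-0.0076) without members carrying genes of other cells, Asf1b (5.34) in the NK part alone and Nrgn (3.79) in the Trdc type alone. Without any C1q or fibroblast UMI allowed, members numbered 20 and 2 cells, the TAC to sham ratio of the member share was 0.100, and the TAC NK part was 50% of the rest. With the stricter cell filter the NK part was 6.06% of sham and 12.5% of TAC members, so that their order turned. The counts of genes higher and lower in TAC were 1283 and 714 at a minimum of 20 CPM, 141 and 139 at 100 CPM, 3442 and 1775 with none, 917 and 708 after thinning, 1091 and 1086 in the NK part alone, and 749 and 718 in the Trdc type alone. Genes higher in the T than in the NK part were 1726 at 20 CPM, 256 at 100 CPM and 1530 after thinning. TMM and median ratio scaling subtract a log2 shift of -0.08 and -0.07, which raises every ratio by that amount, and took the share of calls that were higher from 55.8% to 63.0% and 61.9%. With 1 UMI worth 6.50 CPM in the sham library, genes near 50 CPM rest on few UMIs.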
